A study of Mus musculus with 16 samples.

Results

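The neutrophil-attracting CXC chemokine cluster of mouse chromosome 5 holds the genes Cxcl5, Ppbp, Pf4, Cxcl3, Cxcl1 and Cxcl2, in that order and all on the plus strand. Its open chromatin was described here in 4 lists of ATAC-seq peaks from bone marrow-derived macrophages. Overlapping peaks of the 4 lists were merged into regions, and every region from 100 kb before Cxcl5 to 100 kb after Cxcl2 was taken (GRCm38, chr5:90659360-91005938, 346.579 kb). This window held 16 of 37648 regions. They were taken by position alone, for genes chosen with earlier results of these data known. The first region inside the window lay 30.8 kb from its edge and the next one outside 46.7 kb beyond it. At the other end these distances were 75 kb and 133.4 kb, so that no region sat close to the limit.

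CXC chemokines are small secreted proteins that guide leukocytes. Cxcl1, Cxcl2, Cxcl3 and Cxcl5 carry a glutamate-leucine-arginine motif, bind the receptor Cxcr2 on neutrophils and are released at sites of infection. Macrophages exposed to bacterial lipopolysaccharide (LPS) are a known source of Cxcl1 and Cxcl2, whose induction uses NF-kB. Ppbp encodes a precursor that is cut into the neutrophil attractant NAP-2, and Pf4 encodes platelet factor 4, which lacks that motif. Both are best known from megakaryocytes and platelets.

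Macrophages were grown from the bone marrow of young adult female C57BL/6J mice with L-cell conditioned medium, deprived of serum for the last day and treated on day 8. The Veh group received DMSO and the T0 group 500 nM of T0901317, a synthetic agonist of the liver X receptor (LXR), for 3 h. The LPS and T0-LPS groups had the same 3 h in DMSO or T0. Then 10 ng/mL of LPS was added to that medium for 2 h more. The T0-LPS group thus had a longer exposure to T0 than the T0 group. LPS cannot be told apart from the longer culture or, in T0-LPS against T0, from the longer T0 exposure. Each group had 4 libraries of 50000 cells, 16 in all, and the study's methods count each separately differentiated culture as a sample.

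The authors called peaks on the 4 libraries of a group together and kept those at known macrophage enhancers. There was thus 1 pooled list per group (the values of T0-LPS are also given as "with both") and no value per library, so no test was possible, no p-value is given and no difference below has a replicate check. A peak's score comes from the peak caller and grows with depth, which is unknown here. Each score was therefore also given as a percentile, from 0 for the weakest to 100 for the strongest peak of its own list. A weaker peak can mean fewer cells with the region open or less opening in each cell, which cannot be told apart in bulk. Of 8 macrophage marker genes, between 7 and 8 had a peak within 1 kb of the start site in each list. None of 6 megakaryocyte and platelet genes and none of 5 T cell genes did. Of 5 B cell genes, Ms4a1 had a peak in all 4 lists, and of 4 fibroblast genes, Col1a1 had one in Veh only. Among 8 neutrophil genes, S100a8 had a peak in all 4 lists and Csf3r in 3, and the defining genes Elane, Mpo and Ly6g had none. The filter kept only peaks at macrophage enhancers, so peaks particular to other cells could have been removed. A missing peak therefore does not show that such cells were absent.

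The sequences shown are those before the start sites of the 3 classical LPS-inducible members and those of 2 regions whose presence or rank differed between lists. Of the 3 start sites, only that of Cxcl2 lay in a region. Cxcl1 and Cxcl3 had none within 5 kb, so their sequences carry no result on open chromatin. In the RefSeq promoters, an NF-kB consensus was found on both strands of 1 shared 11-base element, GGGAATTTCCC, in Cxcl1, Cxcl2 and Cxcl3. These are the 120 bases before the RefSeq start site of each gene (GRCm38, plus strand), with that element in capitals.
Cxcl1, chr5:90891125-90891244: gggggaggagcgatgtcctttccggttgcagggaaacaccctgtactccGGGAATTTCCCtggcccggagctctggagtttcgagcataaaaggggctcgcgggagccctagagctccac
Cxcl2, chr5:90903779-90903898: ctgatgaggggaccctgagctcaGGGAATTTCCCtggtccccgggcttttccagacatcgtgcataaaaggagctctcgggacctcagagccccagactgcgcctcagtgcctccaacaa
Cxcl3, chr5:90785981-90786100: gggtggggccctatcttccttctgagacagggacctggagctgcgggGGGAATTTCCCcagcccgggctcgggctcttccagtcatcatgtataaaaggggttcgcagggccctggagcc

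The element began at -71 from the RefSeq start site in Cxcl1, at -97 in Cxcl2 and at -73 in Cxcl3. For Cxcl2 this start site is base 90903899, whereas the GENCODE one, used below for the peak edges, is base 90903871. The offset of Cxcl2 therefore depends on the annotation. The RefSeq table matched 5 of the 6 members, all but Cxcl5, and no NF-kB match was found in the Ppbp and Pf4 promoters. Over all 32851 RefSeq mouse promoters (each of the same length around the start site), 4.51% held an NF-kB match. A match is a description of letters and not evidence of binding.

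These 2 regions are shown by their middle 200 bases (GRCm38, plus strand). Capitals mark matches of any motif searched: NF-kB, AP-1 (TGACTCA or TGAGTCA), PU.1 (GAGGAAGT), C/EBP (TTGCNNAA), the nuclear receptor half-site AGGTCA and DR4, a repeat of that half-site after 4 bases with up to 2 mismatches. All motifs were searched on both strands, and a DR4 match can overlap half-sites. The first lost rank with LPS and the other was present only in Veh.
-14.1 kb of Cxcl1, chr5:90876999-90877198: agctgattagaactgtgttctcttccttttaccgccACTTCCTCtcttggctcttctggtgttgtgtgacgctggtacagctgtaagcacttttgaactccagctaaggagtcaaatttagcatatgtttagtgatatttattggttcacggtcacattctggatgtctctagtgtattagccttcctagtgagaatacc
-37.9 kb of Cxcl1, chr5:90853277-90853476: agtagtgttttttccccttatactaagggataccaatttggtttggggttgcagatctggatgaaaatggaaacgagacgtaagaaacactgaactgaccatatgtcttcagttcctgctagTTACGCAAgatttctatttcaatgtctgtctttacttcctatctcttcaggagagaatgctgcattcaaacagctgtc

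Most of the cluster was open in every group. Of the 16 regions, 14 (87.5%) held a peak in all 4 lists, beside 70.2% of all 37648 regions. The Veh, LPS and T0-LPS lists each had a peak in 15 regions and the T0 list in 14. The median percentile of the regions present was 69.5 in Veh, 57.2 with T0, 67.8 with LPS and 62.9 with both. The lists differ in length, so these medians are not on a common scale, and the changes between lists are given below beside those of all shared regions.

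**Figure D1:**
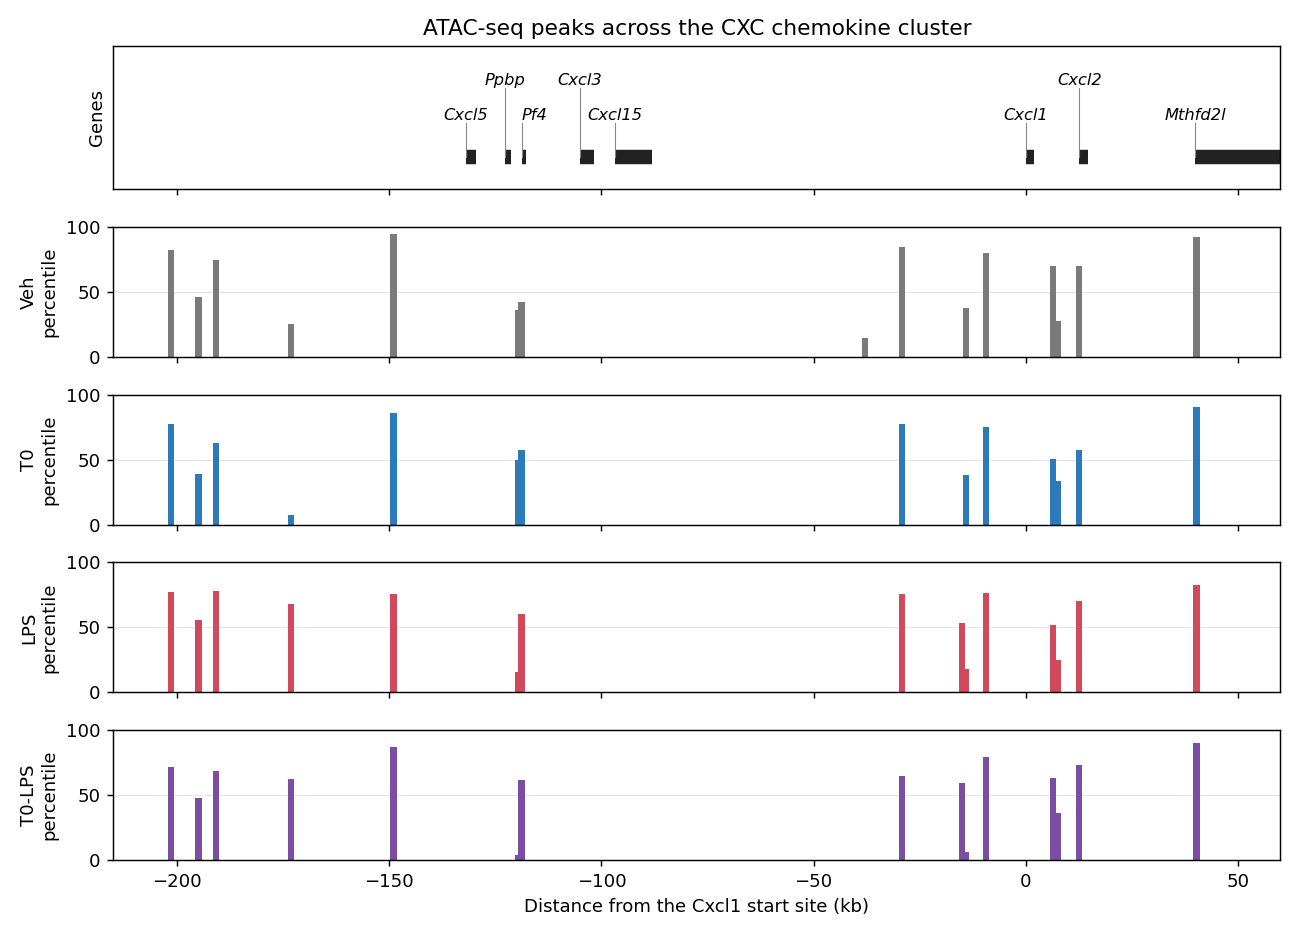
Genes of the cluster (top) and score percentile of the peak of each list at each region, against the distance from the Cxcl1 start site in kb. Bars are drawn wider than the peaks so that they can be seen, with 1 row per list and each bar for 1 pooled peak list. The bar 15.0 kb before Cxcl1 is present in the LPS and T0-LPS rows only, and no bar lies at the start sites of Cxcl5, Cxcl3 or Cxcl1.

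Among Cxcl1, Cxcl2, Cxcl3 and Cxcl5, the Cxcl2 start site alone lay in a region. Cxcl2 (chr5:90903871-90905938 by GENCODE) had a region at chr5:90903174-90904331 that covers its start site and the beginning of the gene. The score there was 570 in Veh, 354 with T0, 497 with LPS and 486 with both, which are percentiles 69.6, 57.0, 70.1 and 73.3. The region was thus lowest in rank with T0 alone and similar in the other 3 lists. The change from Veh to T0 was -12.6 points, beside a median of -5.58 and a 25th percentile of -13.0 over all shared regions. In lists of equal length it was -6.75 points.

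The Cxcl2 peak changed in extent with LPS. Past the start site it reached 147 bp in Veh and 129 bp with T0, but 430 bp with LPS and 460 bp with both. Before the start site it reached 697 bp in Veh, and 372 bp with T0, 370 bp with LPS and 357 bp with both. Both lists with LPS therefore covered more of the transcribed side, and the Veh list alone reached further upstream. A peak edge moved outward by at least the same 283 bp in 0.395% of 29848 regions with 1 peak in both Veh and LPS. For T0-LPS against T0, the 331 bp at Cxcl2 was reached by 0.435% of 25750 regions. Peak widths grow with depth, and these edges were looked at because the values had been seen.

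Cxcl1 (chr5:90891241-90893115), Cxcl3 (chr5:90786103-90789600) and Cxcl5 (chr5:90759360-90761624) had no region within 5 kb of the start site in any list. The nearest regions lay 6169 bp, 13459 bp and 12027 bp away. The lists hold only peaks that passed the enhancer filter, so an open start site could have been removed by it. The numbers at the end of the peak names bear on this, since they are read here as counting the peaks of a list before that filter. In the interval that holds the Cxcl1 gene, 1 number was missing in Veh, 1 with T0, 2 with LPS and 2 with both. Between the region at the Pf4 start site and that 29.2 kb before Cxcl1, which includes Cxcl3, the same counts were 1, 1, 2 and 2. Where in these intervals the removed peaks lay is unknown. Between the region 17.1 kb before Cxcl5 and that 0.9 kb before Pf4, which includes the start sites of Cxcl5 and Ppbp, no number was missing in any list. By that reading, no peak was called at the start sites of Cxcl5 and Ppbp in any of the 4 groups.

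The LPS-opened region of the cluster lay 15.0 kb before Cxcl1, in the space between genes. It held no peak in Veh or T0. In LPS its score was 343 (percentile 53.2) and in T0-LPS 359 (percentile 59.4). No peak number was missing at this place in the Veh and T0 lists, so by the same reading no peak had been called there. The region was therefore absent from both lists without LPS and of middle rank in both with it, with or without T0.

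Its neighbour 14.1 kb before Cxcl1 (chr5:90876816-90877382) went the other way. Its score was 278 in Veh, 234 with T0, 145 with LPS and 94 with both, at percentiles 37.5, 38.3, 18.1 and 6.21. Both lists with LPS were below both without it, and T0-LPS was the lowest. The peak was also narrower, at 567 bp, 437 bp, 214 bp and 185 bp. This region held matches of PU.1, C/EBP and the nuclear receptor half-site, and none of NF-kB, AP-1 or DR4.

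A region 41.2 kb before Cxcl5 (chr5:90717875-90718354) had the largest gain of rank with LPS. The score rose from 199 in Veh and 103 in T0 to 473 in LPS and 385 in T0-LPS. The percentiles were 24.9 and 7.04 without LPS and 67.8 and 62.8 with it. The gain from Veh to LPS was 42.8 points, a size reached by 0.643% of 30629 regions present in both lists. From T0 to T0-LPS it was 55.7 points, reached by 0.332% of 26831 regions. The region was picked as the largest gain of the cluster, so these shares give the size only and are no test. None of the motifs searched was found in this region, which says only that those letters are not there.

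The other 3 regions furthest upstream of Cxcl5 kept much of their rank. The first 2 of them lie nearer to the start site of another gene, Rassf6, at 49201 bp and 55654 bp. At -69.5 kb the percentiles were 82.0 in Veh, 77.6 with T0, 76.9 with LPS and 71.7 with both. At -63.0 kb they were 46.0, 38.9, 55.6 and 48.2, and at -59.0 kb 74.7, 62.4, 78.2 and 68.6. In each of the 3, the list with T0 was below the list without it, both with and without LPS. At -63.0 kb, however, the change without LPS turned from -7.06 to 3.54 points when ranked among regions of all 4 lists. In lists of equal length it turned to 3.28 points. Most regions had this direction: 77.1% of all shared regions were lower in T0 than in Veh and 60.7% lower in T0-LPS than in LPS. The region 17.1 kb before Cxcl5 was the strongest of the cluster in Veh, with a score of 1080 and percentile 94.6. Its percentile was lower in the others, at 86.0 with T0, 75.9 with LPS and 87.3 with both.

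Pf4 (chr5:90772435-90773383) had a region at its start site (chr5:90772209-90772644), and another 0.9 kb before it, which was also the nearest to Ppbp (chr5:90768518-90770063), 2869 bp from its start site. The start site region scored 308 in Veh, 355 with T0, 404 with LPS and 375 with both, at percentiles 41.8, 57.3, 60.5 and 61.5. Veh was thus the lowest list there. The upstream region scored 264, 301, 136 and 82 in the same order, at percentiles 35.7, 49.6, 15.8 and 3.90. It was highest with T0 alone and lowest with T0 and LPS together. The 2 regions of Pf4 moved apart with LPS, the one at the start site to a higher rank and the one before it to a lower one. None of the 6 megakaryocyte and platelet genes had a peak in any list, but the enhancer filter could have removed such peaks. The part of other cells in the Pf4 values was not tested.

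**Figure D2:**
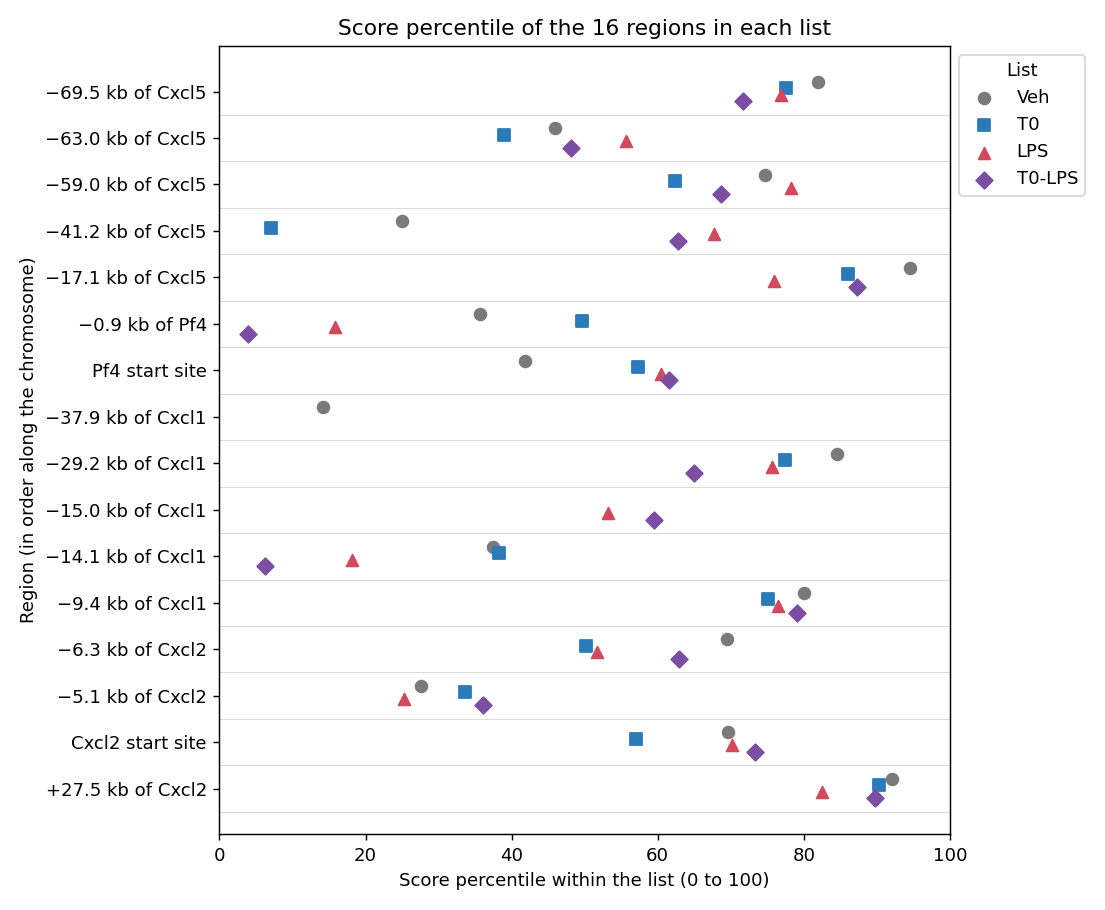
Score percentile (x axis, 0 to 100 within each list) of the 16 regions, in order along the chromosome from top to bottom. Each symbol is 1 pooled peak list, and a missing symbol means no peak. The region 41.2 kb before Cxcl5 has its Veh and T0 symbols at 24.9 and 7.04 and its LPS and T0-LPS symbols at 67.8 and 62.8.

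The other regions near Cxcl1 and Cxcl2 were present in all 4 lists, except 1. The region 37.9 kb before Cxcl1 (chr5:90853269-90853484) had a peak in Veh only, with a score of 142 at percentile 14.2. The peak numbers left room there for a removed peak in each of the other 3 lists. At -29.2 kb of Cxcl1 the percentiles were 84.6 in Veh, 77.5 with T0, 75.6 with LPS and 65.0 with both. At -9.4 kb they were 80.0, 75.2, 76.5 and 79.0, so that all 4 lists had this region among their stronger peaks. At -6.3 kb of Cxcl2 they were 69.5, 50.2, 51.6 and 62.9, with Veh the highest. At -5.1 kb they were 27.5, 33.6, 25.3 and 36.1. The region 27.5 kb after the Cxcl2 start site lies at the start of Mthfd2l, a gene of mitochondrial folate metabolism, and had percentiles 92.0, 90.3, 82.6 and 89.8.

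The first comparison asked which regions T0 closes or opens in resting cells. A region is called T0-closed when it held a peak in Veh and none in T0, and T0-opened in the converse case. In the cluster, 1 of 15 Veh regions was T0-closed (6.67%, Wilson 95% interval 1.19 to 29.8%, counting error only), that 37.9 kb before Cxcl1. Over all regions the share was 18.1%, which lies inside this interval. No region of the cluster was T0-opened, beside 0.729% of all regions. Among the 14 regions in both lists, none was higher and none lower by at least 20 points, against 0.0762% and 10.4% of all regions. The median change was -5.94 points, beside -5.58 points over all shared regions, and 10 of the 14 were lower with T0, beside 77.1% of all. The region at -63.0 kb of Cxcl5 is among the 10.

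With T0 alone, the score itself was lower in 12 of the 14 regions and higher in 2, both at Pf4. A higher score in T0 than in Veh was seen in 4.45% of 28857 shared regions. The rise at the Pf4 start site was 15.5 points of percentile, a size reached by 0.392% of shared regions, and that before it 13.9 points. Shares given here for the largest rise and fall belong to regions picked for their size. When percentiles were taken among regions of all 4 lists only, the rises were 28.5 and 26.8 points. The largest falls were at -6.3 kb of Cxcl2 (-19.4 points, a fall reached by 11.5% of shared regions) and at -41.2 kb of Cxcl5 (-17.9 points). The fall at -41.2 kb was -3.52 points among the regions of all 4 lists, so its size rests on the percentile scale.

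For LPS against Veh, 1 of 15 regions was LPS-closed (6.67%, interval 1.19 to 29.8%), again that 37.9 kb before Cxcl1, and 1 of 15 LPS-opened, that 15.0 kb before Cxcl1. Over all regions 13.0% were LPS-closed and 6.14% LPS-opened, so neither share of the cluster stood apart from the background. Of the 14 shared regions, 1 was higher by at least 20 points, beside 3.92% of all, and none lower, beside 9.14%. Just below that limit were the region 0.9 kb before Pf4 (-19.9 points), that 14.1 kb before Cxcl1 (-19.4 points), that 17.1 kb before Cxcl5 (-18.7 points) and the Pf4 start site (18.7 points). The median change was -4.30 points, beside -2.01 over all.

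In cells given LPS, T0 closed and opened no region of the cluster (0 of 15 in each case, interval 0 to 20.4%). Over all regions, 9.97% of the LPS regions were absent from T0-LPS, and 3.37% of the T0-LPS regions were absent from LPS. None of the 15 shared regions was higher or lower by at least 20 points, beside 0.929% and 4.36% of all. The changes ran from -11.9 to 11.4 points with a median of 0.991, beside -1.76 over all, and 8 regions were higher and 7 lower. The LPS-opened region before Cxcl1 was 6.22 points higher with T0 and the Cxcl2 start site 3.16 points higher. At the strengthened region before Cxcl5 the change was -4.99 points.

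LPS was also compared on the background of T0, to which the T0-LPS cells were exposed for longer. Between T0 and T0-LPS no region was lost (0 of 14, beside 7.70%), and 1 of 15 was gained (beside 11.7%), the same region 15.0 kb before Cxcl1 as without T0. Of the 14 shared regions, 1 was higher by at least 20 points, beside 7.76% of all, and 2 were lower, beside 5.62%. The higher one was that 41.2 kb before Cxcl5. The lower ones were that 0.9 kb before Pf4 (-45.7 points, a fall reached by 0.216% of shared regions) and that 14.1 kb before Cxcl1 (-32.1 points). The share of 0.216% belongs to the largest fall of the cluster, picked for its size. The Cxcl2 start site was 16.2 points higher, against 0.50 points between Veh and LPS. The median change was 3.18 points, beside 0.60 over all.

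**Figure D3:**
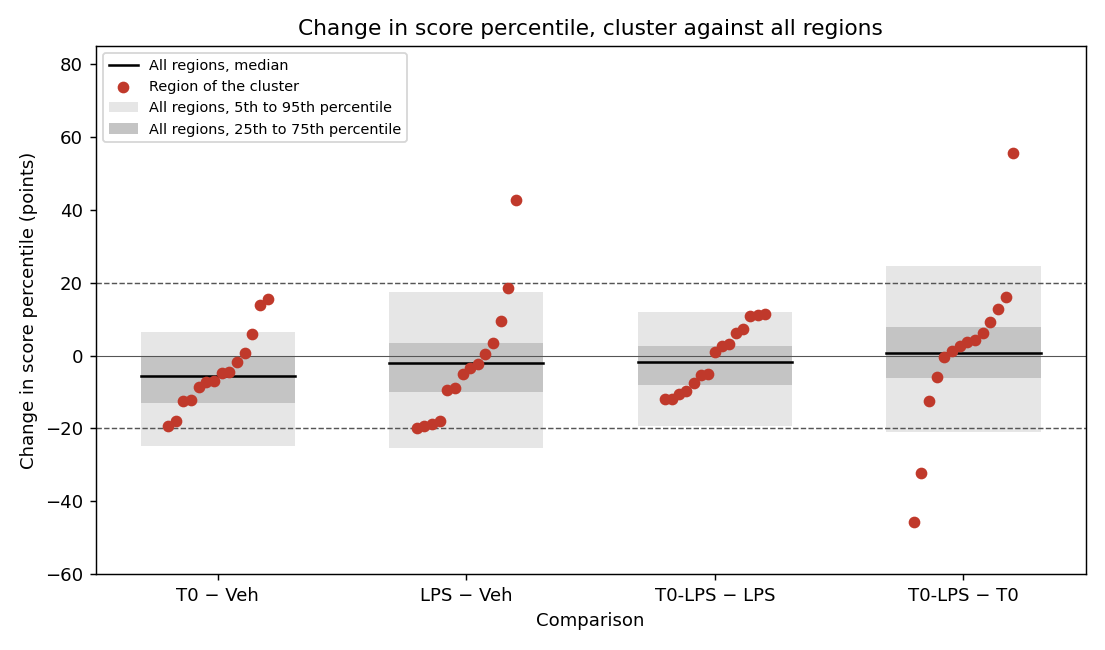
Change in score percentile (points) between lists for the cluster's regions (red points) and for all shared regions (grey bars from the 5th to 95th and the 25th to 75th percentile, black line at the median). Dashed lines mark 20 points up and down. In T0-LPS against LPS all red points lie between -11.9 and 11.4, and in T0-LPS against T0 1 point lies above the upper dashed line and 2 below the lower one.

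By the same reading of the peak numbers, more peaks were called across the cluster with LPS than the filtered lists show. The span between the outermost regions (chr5:90689508-90931832, 242.325 kb) is bounded by peaks present in all lists, so that the peak numbers count the calls within it. They gave 19 called peaks in Veh, 17 with T0, 24 with LPS and 23 with both. Of these, 15, 14, 15 and 15 were retained in the lists. The other 4, 3, 9 and 8 are missing numbers, read here as peaks that the enhancer filter removed. The number retained was the same in Veh and LPS, so the number removed was also 5 higher with LPS. The added calls were not all removed ones. In the interval of the region 15.0 kb before Cxcl1, Veh had 0 calls and LPS had 1, which was retained. Over whole lists the number of called peaks was lower in LPS than in Veh, 47925 against 54437. Runs of 14 consecutive regions of all 4 lists were used as a background. Of 26155 such runs, which overlap one another and had a median span of 712.5 kb, 0.742% gained at least as many calls from Veh to LPS as the 5 of the cluster. The median run lost 3. From T0 to T0-LPS the cluster gained 6 and 6.07% of the runs gained as many. This count was chosen after its values were seen.

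By interval, the removed peaks that the LPS list had beyond those of Veh lay in 4 places. They were 2 between the regions at -59.0 and -41.2 kb of Cxcl5, 1 between -41.2 and -17.1 kb of Cxcl5, 1 between the Pf4 start site and -29.2 kb of Cxcl1, and 1 in the interval of the Cxcl1 gene. The T0-LPS list had 1, 1, 1 and 1 more than Veh in the same places. Between the Pf4 start site and -29.2 kb of Cxcl1, the calls themselves numbered 2 in Veh, LPS and T0-LPS. Veh retained 1 of them and the other 2 lists 0. The 2 intervals on either side of the strengthened region at -41.2 kb held no removed peak in Veh or T0.

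**Figure D4:**
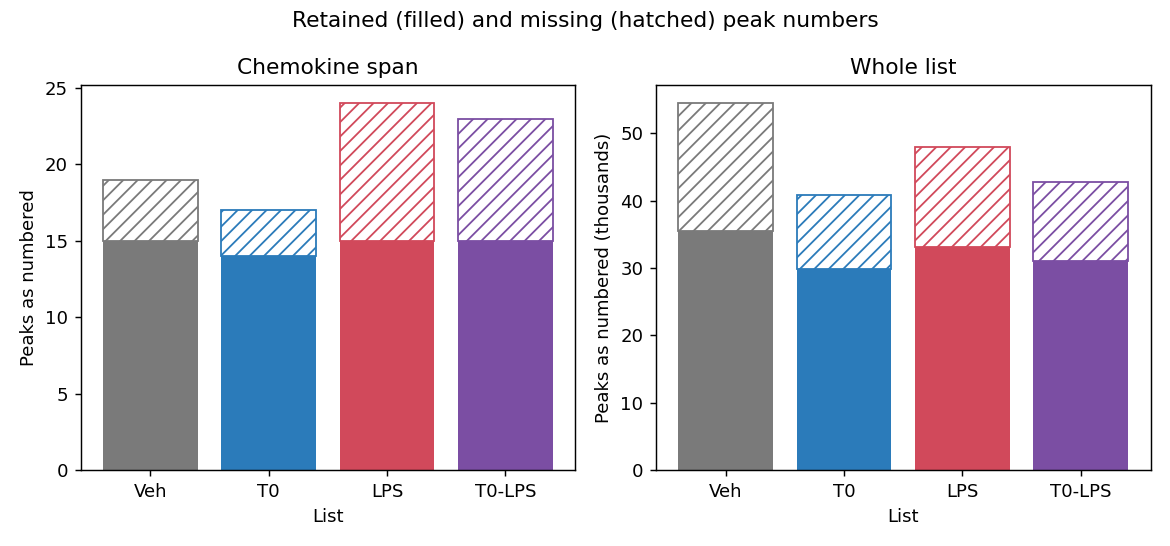
Number of peaks as numbered in the peak names, in the span of the chemokine cluster (left) and in the whole list (right), with 1 bar per pooled list. Filled parts are peaks retained in the list and hatched parts are missing numbers. In the cluster the LPS and T0-LPS bars reach 24 and 23, above Veh at 19 and T0 at 17, while over whole lists Veh is the highest.

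Motif matches over the whole regions were counted without reference to their changes. NF-kB was found in 3 of 16 regions (18.8%, interval 6.59 to 43.0%), beside 8.46% of 37620 regions. The Cxcl2 and Pf4 start sites were among them. At Pf4 the match lies past the start site (chr5:90772486-90772495). C/EBP was found in 9 regions (56.3%, interval 33.2 to 76.9%), beside 19.6% of all, and PU.1 in 5 (31.3%), beside 12.3%. AP-1 was found in 4 (25%), beside 19.1%, and the half-site in 6 (37.5%), beside 23.6%. DR4 was found in none (interval 0 to 19.4%), beside 4.47% of all, which lies inside this interval. Regions differ in width, and wide ones hold more matches.

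Other chemokine clusters were described in the same way. The window of Cxcl9, Cxcl10 and Cxcl11, which attract T cells through Cxcr3, had 14 regions, of which 10 were in all 4 lists. Of its 12 Veh regions 1 was T0-closed, and of its 14 LPS regions 3 were absent from T0-LPS. The cluster of Ccl2, Ccl7, Ccl11, Ccl12, Ccl8 and Ccl1 had 18 regions with 9 in all 4 lists. There, 5 of 17 Veh regions were T0-closed and 2 of 14 LPS regions absent from T0-LPS. The cluster of Ccl5, Ccl9, Ccl6, Ccl3 and Ccl4 had 31 regions with 18 in all 4 lists. There, 6 of 26 Veh regions were T0-closed and 2 of 29 LPS regions absent from T0-LPS. The neutrophil-attracting cluster had 14 of 16 regions in all 4 lists, with 1 of 15 T0-closed and 0 of 15 absent from T0-LPS. Over all regions 18.1% were T0-closed and 9.97% of the LPS regions absent from T0-LPS. These counts are small and were not tested against each other.

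Of the CXC receptors, 7 of 8 had a region within 100 kb of the start site, up to 15 for Cxcr5, and Ackr3 had none. Counted once each, 12 of their 56 Veh regions (21.4%) were T0-closed, beside 18.1% of all, and 4 of their 53 LPS regions (7.55%) LPS-opened, beside 6.14%. Cxcr2, the receptor of the neutrophil attractants, had 10 regions, with 1 T0-closed and no LPS-opened region among them. Of the 9 other CXC ligands, 7 had a region, and Cxcl12 and Cxcl13 had none. Cxcl15, a lung chemokine whose gene lies between Cxcl3 and Cxcl1, shares 11 regions with the cluster. Without these, 6 of 39 Veh regions near the other ligands (15.4%) were T0-closed and 4 of 40 LPS regions (10%) LPS-opened.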

How the data were processed

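The authors trimmed reads with cutadapt, aligned them with Bowtie2 to mm10 and removed PCR duplicates with SAMtools. They called peaks with MACS2 on the 4 libraries of a group together and kept those at macrophage enhancers marked by H3K27ac or H3K4me2 in other data. Each deposited list holds positions, peak names and a score per peak, read here as the peak caller's score with no stated unit. Of 129656 peaks, 129556 were on the 21 main chromosomes and 0 ended past the GRCm38 length. Peaks that overlapped by at least 1 bp were merged, and a region took the highest score per list. Genes came from GENCODE vM21 and sequences from GRCm38.p6 or RefSeq. Wilson 95% intervals cover counting error only. Numbers missing from the peak names were read as called peaks that the filter removed, a reading that no source states.

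The text names the 6 members, gives every region of the window, and describes fully those that differed in presence, lay within 5 kb of a start site or changed by at least 20 percentile points. Members, lists and comparisons were chosen with earlier results of these data known. The steps were tested on simulated peaks. Python 3.11.15, pandas 2.3.3, pysam 0.24.0 and matplotlib 3.10.9 were used. Alternatives were score limits, other windows, overlap rules, list lengths and percentile scales. The sequences of 2 of the regions are not reported here.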

Additional observations from a re-analysis of the deposited data

Results flagged for a closer look

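Removed peaks, as read from missing peak numbers, lie outside the deposited lists. They numbered 9 in LPS and 8 in T0-LPS across the cluster, above the 4 of Veh. At 3 regions the rank moved one way with T0 alone and the other way with T0 in LPS-treated cells, by at least 5 points each time. How many of all shared regions did so was not counted. Over all shared regions the median change was -5.58 points with T0 alone and -1.76 points with T0 in LPS-treated cells. At -17.1 kb of Cxcl5 the change was -8.57 points without LPS and 11.4 points with it. At -6.3 kb of Cxcl2 it was -19.4 points without LPS and 11.3 points with it. At -0.9 kb of Pf4 it was 13.9 points without LPS and -11.9 points with it, but -4.54 points with it when ranked among regions of all 4 lists, and in lists of equal length the T0-LPS peak dropped out. With 1 pooled list per group, none of these differences was tested. No group held 4 separate values, so single samples far from the others could not be looked for.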

How the results depend on the processing

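The number of regions with a peak was within 1.5 times the reported count under score limits, other windows, merging within 100 bp and lists cut to 29839 peaks. The exception was the members with 10 kb on each side, where it was 6 in each list. Closed and opened counts were 0 or 1 and moved as follows. T0-closed and LPS-closed counts were each 0 for the members with 10 kb, for equal lists and where no room for a removed peak was asked, and 3 with 200 kb. At a score of at least 200 they were 0 and 3. LPS-opened and T0-LPS against T0 opened counts were 2 at a score of at least 200 and at a reciprocal overlap of 50%, and 0 for the members with 10 kb. The latter was 2 with 200 kb. LPS-closed was 2 at a reciprocal overlap of 50%. T0-LPS lost 2 LPS regions at a score of at least 100 and 1 with equal lists, and opened 1 at 200. It lost 2 T0 regions at 100 and at 200, and 1 with 200 kb, equal lists or reciprocal overlap.

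Among regions of all 4 lists, and in equal lists, 2 regions were higher by at least 20 points for T0 against Veh (both at Pf4), 2 were higher for LPS against Veh and 1 was lower. In equal lists 1 was lower for T0-LPS against T0. With a limit of 10 points, 2 were higher and 4 lower for T0 and for LPS against Veh, 3 and 3 for T0-LPS against LPS, and 3 were higher for T0-LPS against T0. From Cxcl5 to Cxcl2 only (chosen after seeing the data), the peak numbers gave 12, 11, 14 and 14 calls in Veh, T0, LPS and T0-LPS. Of 111 changes of single regions recomputed on the other 2 percentile scales, 83 moved by under 5 points and 28 by more, and 0 of those past 20 points changed sign. The mean score changed nothing, since each region had 1 peak per list.

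No paired analysis was possible because each list pools its 4 libraries, and no library was left out for the same reason. Depth per library is unknown, and weak peaks near the authors' limit can be missing for lack of reads.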
